A study of Sus scrofa with 12 samples.

Results

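The interferon-stimulated genes described here are 36 genes that a cell transcribes when it senses interferon or viral RNA. They were taken by name, and all 36 were found once among the 28224 genes on the chromosomes of the RefSeq annotation of Sscrofa11.1. RIGI is annotated there as DDX58, and the IFIT5 of the list as LOC100151816. Of the 36 genes, 33 reached a mean of 0.5 FPKM in at least 1 group and were tested among 12414 genes. FPKM is the number of fragments scaled to transcript length and to the mapped fragments of the library. ISG20 and OASL were listed at 0 in all 12 libraries, and DHX58 stayed under the minimum.

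Loin muscle (longissimus dorsi, LD) of 12 castrated male Iberian pigs was sequenced, with 1 RNA library per pig. The pigs were purebred animals of a closed commercial population, fattened outdoors on acorns and grass, and differed in their estimated breeding value (EBV) for intramuscular fat (IMF). The 6 pigs of the H group had labelled EBVs of 2.78 to 3.48 and 10.62 to 13.8% IMF, and the 6 pigs of the L group had EBVs of -1.46 to -1.31 and 1.7 to 2.28% IMF. The IMF of L pigs is given as labelled, and its level is uncertain because the sources used here differ. Siblings were left out, and the animals came from several batches, but which batch a pig belonged to is not known here. The labels give no treatment or infection, and the comparison asks whether the basal level of these genes differed with breeding value. Pigs are called H1 to H6 and L1 to L6 after their group and number.

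The files held 30535 to 44609 assembled transcripts and 9.88 to 17.6 gigabases of coverage per library. Each file lists assembled transcripts alone, so a 0 can be a failed assembly, as for the muscle actin gene ACTA1, which was listed at 0 in all 12 libraries. The summed level of the other skeletal muscle genes looked at, such as the troponin genes, lay between 31292 and 47250 FPKM in every pig. Some of these were also listed at 0 in single pigs, CKM in H4 and L2, MYH7 in H6 and L4, and TNNI1 in L3. TTN was above 0 in H2 and H5 alone. In whole muscle, fewer cells of a type and less RNA per cell cannot be told apart.

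Interferons are secreted proteins that bind receptors on neighbouring cells and activate the JAK kinases. Type I and III interferons lead to a complex with STAT2 and IRF9 that binds the interferon-stimulated response element (ISRE), and interferon gamma acts through the gamma-activated site (GAS). The genes switched on in this way detect foreign RNA, block its translation or copying, tag proteins with the ubiquitin-like ISG15, and attract lymphocytes, and most of them keep a low basal level in healthy tissue.

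The DNA before these genes was read from the RefSeq Sscrofa11.1 sequence, since it shows what the members share beyond their name. An ISRE core was searched as GAAANNGAAA on both strands from 250 bases before to 50 after the annotated gene start. It was found in 18 of 36 members (50%), against 700 of 19559 protein-coding genes (3.58%). The repeated unit GAAA alone was found near 91.7% of the members and 85.4% of the protein-coding genes, and it is contained in every ISRE match. The GAS letters TTCNNNGAA were found near IRF1, IRF9 and BST2, 8.33% of the members, against 7.12% of the protein-coding genes. The following stretches of 250 bases end 1 base before the annotated start of 5 members, from 4 role groups, that hold the ISRE core. They are written 5′ to 3′ on the strand of the gene, with the ISRE matches in capitals. The stretches are ISG15 (chr6:63362951-63363200, plus strand), IFIT3 (chr14:101214480-101214729, plus strand), RSAD2 (chr3:128897810-128898059, minus strand), BST2 (chr2:60305056-60305305, plus strand) and CXCL10 (chr8:71695949-71696198, minus strand).
ISG15: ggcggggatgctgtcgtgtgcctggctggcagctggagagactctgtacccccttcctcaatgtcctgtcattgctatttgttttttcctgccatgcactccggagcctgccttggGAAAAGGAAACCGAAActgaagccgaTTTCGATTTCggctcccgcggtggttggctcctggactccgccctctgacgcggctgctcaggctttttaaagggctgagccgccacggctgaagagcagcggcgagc
IFIT3: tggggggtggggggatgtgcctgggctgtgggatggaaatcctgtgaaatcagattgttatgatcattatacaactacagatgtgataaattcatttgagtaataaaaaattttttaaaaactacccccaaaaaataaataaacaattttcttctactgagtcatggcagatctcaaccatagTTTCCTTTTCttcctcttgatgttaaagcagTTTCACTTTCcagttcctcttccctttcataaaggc
RSAD2: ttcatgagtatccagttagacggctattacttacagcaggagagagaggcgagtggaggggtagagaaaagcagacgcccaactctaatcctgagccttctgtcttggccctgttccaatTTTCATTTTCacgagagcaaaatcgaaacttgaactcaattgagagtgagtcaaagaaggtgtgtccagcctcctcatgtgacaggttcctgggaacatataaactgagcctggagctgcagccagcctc
BST2: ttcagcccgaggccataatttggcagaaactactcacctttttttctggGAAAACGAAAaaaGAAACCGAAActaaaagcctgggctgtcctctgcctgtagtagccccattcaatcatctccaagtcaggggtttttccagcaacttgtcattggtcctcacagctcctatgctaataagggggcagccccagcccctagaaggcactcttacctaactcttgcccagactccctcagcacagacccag
CXCL10: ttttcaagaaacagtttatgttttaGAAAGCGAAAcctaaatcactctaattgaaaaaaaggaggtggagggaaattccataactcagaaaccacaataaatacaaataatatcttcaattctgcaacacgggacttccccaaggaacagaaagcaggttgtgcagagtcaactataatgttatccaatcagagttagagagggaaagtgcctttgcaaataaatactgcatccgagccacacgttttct
ISG15 carried 3 matches, beginning at -134, -128 and -108 from the start, with the first pair overlapping, and BST2 carried 2 matches 3 bases apart.

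**Figure D1:**
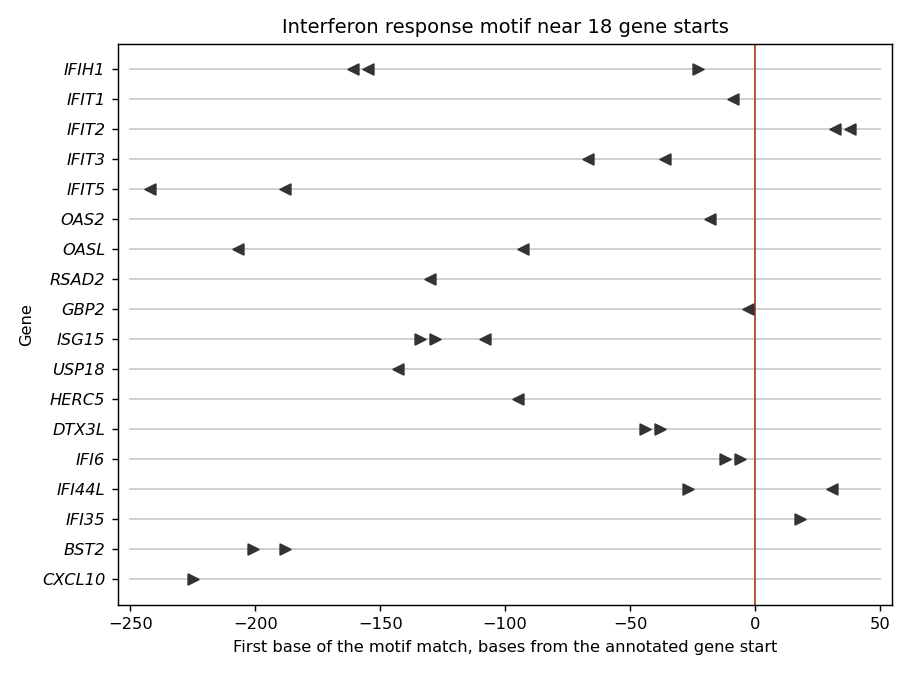
Position of each GAAANNGAAA match (triangles pointing right, plus strand of the gene; left, minus strand) in bases from the annotated start (red line) of the 18 members that hold it. Most matches lie before the start, while all of those of IFIT2 and IFI35 and 1 of IFI44L lie after it.

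The assembled transcripts gave a second view of where these genes begin. For genes with a spliced transcript in at least 6 libraries the window was placed at the median 5′ end of the assemblies, a choice made after the data were seen. The ISRE core was then found near 16 of 33 members (48.5%) and 330 of 11535 protein-coding genes (2.86%). It was found in both windows for 12 members, in the annotated one alone for 6, in the assembled one alone for 4, and in neither for 14. IFI44, a protein of unsettled function, is one of the 4. Its transcripts began 316 to 463 bases before the annotated start in the 12 libraries. IFIT5, which binds the 5′ end of RNA, began 21 to 206 bases before its annotated start. Its matches began at -242 and -188 from the annotated start and at -75 and -21 from the median assembled one. The 250 bases before the median assembled end are shown for these 2 genes, IFIT5 (chr14:101254401-101254650, plus strand) and IFI44 (chr6:134650220-134650469, minus strand).
IFIT5: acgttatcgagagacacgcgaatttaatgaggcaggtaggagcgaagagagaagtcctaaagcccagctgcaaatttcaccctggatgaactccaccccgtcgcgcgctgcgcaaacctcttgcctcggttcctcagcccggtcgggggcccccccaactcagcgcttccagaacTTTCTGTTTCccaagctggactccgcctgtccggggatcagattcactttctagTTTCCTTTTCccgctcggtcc
IFI44: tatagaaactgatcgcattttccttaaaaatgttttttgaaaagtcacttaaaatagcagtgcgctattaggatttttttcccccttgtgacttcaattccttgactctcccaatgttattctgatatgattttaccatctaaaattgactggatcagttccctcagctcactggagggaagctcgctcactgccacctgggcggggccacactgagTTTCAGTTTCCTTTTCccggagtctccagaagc
The other 3 were PARP14, EIF2AK2 and GBP1, of which EIF2AK2, the kinase PKR, and GBP1, a guanylate-binding GTPase, began after their annotated starts in all libraries. Their matches are shown with 10 bases on either side, EIF2AK2 (chr3:103041204-103041233, plus strand) and GBP1 (chr4:127426367-127426396, plus strand).
EIF2AK2: agtccgcgggGAAAACGAAActgagagtga
GBP1: tattcattgcTTTCAGTTTCatatttattc
A match is a run of letters in the genome and was not tested for binding.

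None of the 33 members tested differed between H and L pigs at an adjusted p under 0.1 in limma, and the smallest adjusted p among them was 0.652. Over all genes 1 of 12414 passed, 0.00806%. At an unadjusted p under 0.05, IFIT5 was higher in H pigs, 1 of 33 members (3.03%) against 3.93% of all genes tested, and ISG15 was lower, 1 of 33 (3.03%) against 3.37%. Both shares were near those of all genes. The log2 fold change of FPKM + 0.5, H minus L, was above 0 for 26 of 33 members (78.8%), against 50.6% of all genes, and its median was 0.18 against 0.0031. The added 0.5 understates the change of genes at a low level. The groups overlapped for all 33 members, while they did not overlap for 0.556% of all genes tested. The median of the members was 0.079 without H2 and 0.043 without H2, H3 and L3, the pigs described next, and then 21 of 33 were above 0.

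**Figure D2:**
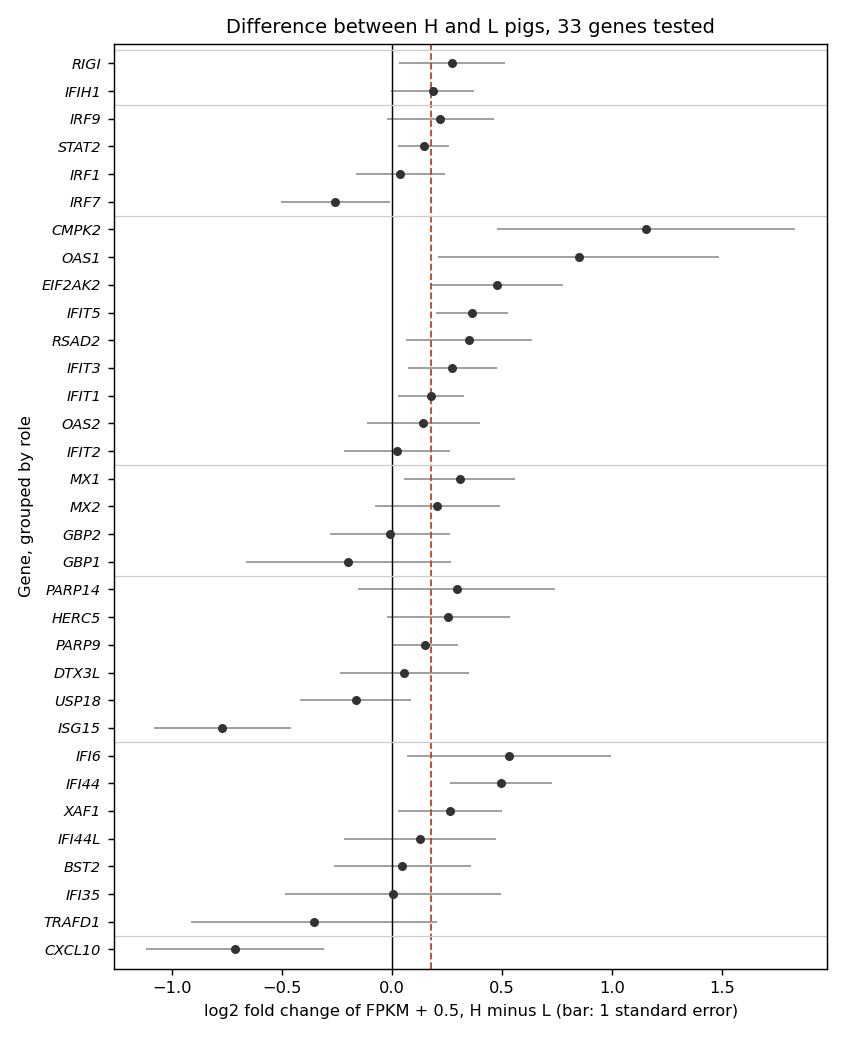
Log2 fold change of FPKM + 0.5, H minus L, of the 33 members tested (points, with 1 standard error from limma), grouped by role. The dashed line marks their median of 0.18, and 26 points lie above 0, with none past an adjusted p of 0.1.

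The members tended to be high or low together in a pig, whichever its group. Each member's log2(FPKM + 0.5) was set against its mean over the 12 pigs, and the median over the 34 members listed above 0 in a library was taken for each pig. This deviation was 0.55 in H2, 0.49 in H3 and 0.29 in L3. In the other 9 pigs it lay between -0.34 in H1 and -0.045 in H6. H2 had the highest level of 14 members, H3 of 10 and L3 of 7, so that these 3 pigs held the highest level of 31 of 34 members. With FPKM weighted by the share of a gene's exonic bases that each transcript covers, which counts short fragments less, they held 32 of 34, with 18 in H2, 9 in H3 and 5 in L3. The group medians of the deviation were -0.080 in H pigs and -0.15 in L pigs, which differed by less than the spread between pigs.

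**Figure D3:**
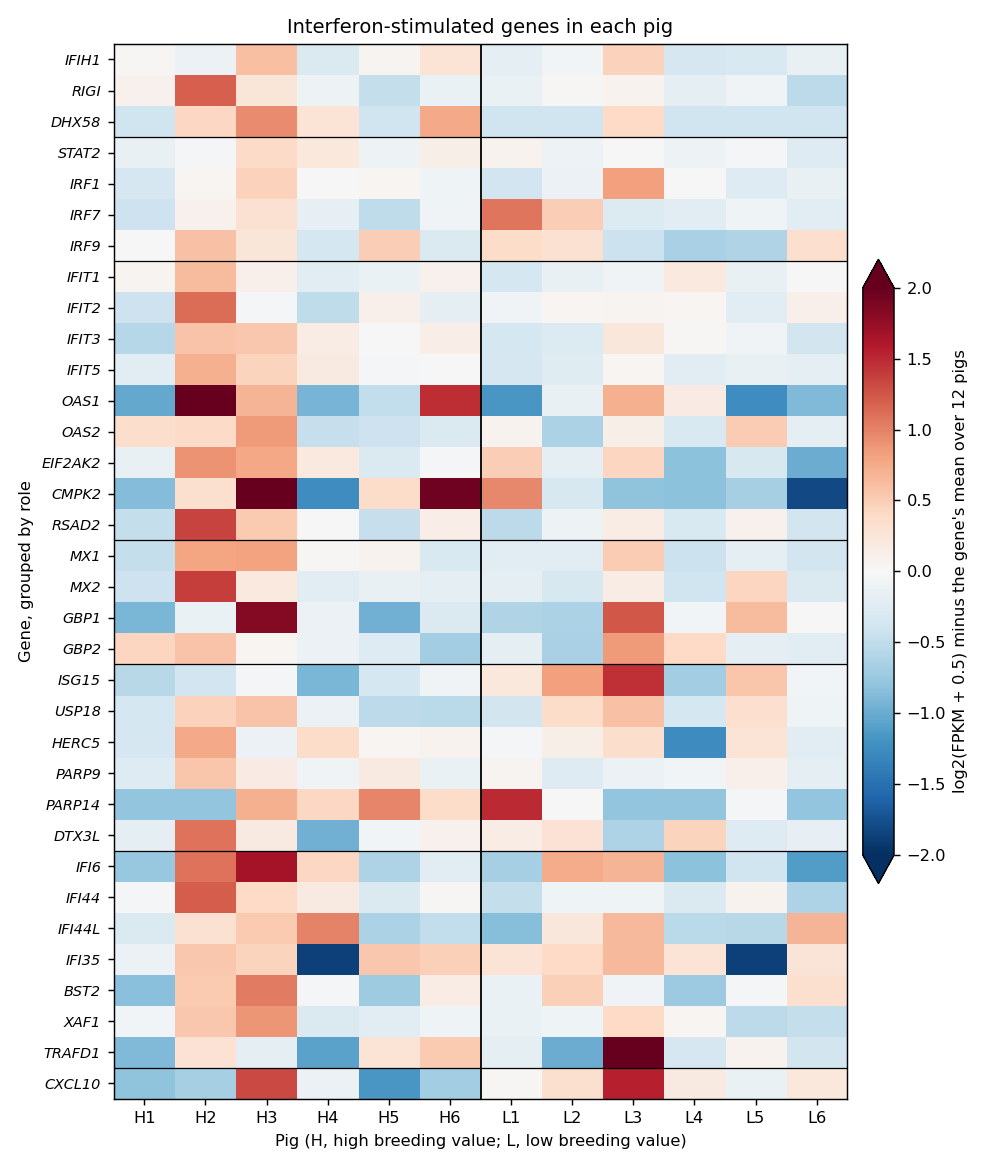
Log2(FPKM + 0.5) of each of the 34 members listed above 0, minus its mean over the 12 pigs (red higher, blue lower; larger deviations share the last colour), with rows grouped by role. H2 holds the highest level of 14 members, H3 of 10 and L3 of 7.

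Genes outside the list gave a like order of pigs. Of 48 further interferon-induced genes, such as ADAR, TAP1 and the immunoproteasome subunits, 39 were found once in the annotation and 34 were tested. Their median deviation was 0.35 in H3, 0.25 in H2, 0.12 in L3 and 0.10 in H4, and lay between -0.24 and -0.061 in the other 8 pigs. Among members above 0 in all pigs, 435 pairs of 30 genes had a median correlation of 0.40 over the 12 pigs once the group means were removed, against -0.0018 over all pairs of 10466 genes. These values are a description over genes that share 12 libraries. Without H2 the median over the pairs was 0.38, without H3 0.35 and without L3 0.40. With weighted FPKM it was 0.51 over the 12 pigs and 0.42 without H2.

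**Figure D4:**
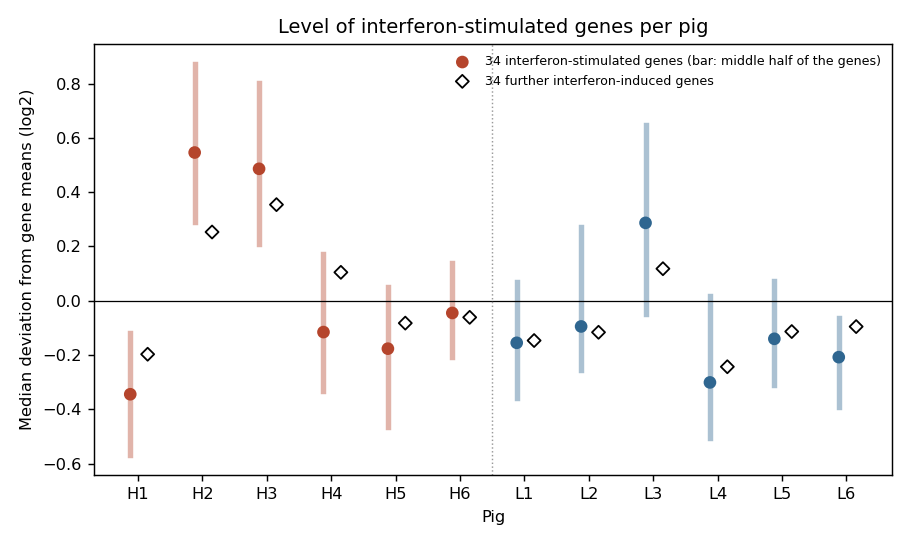
Median deviation from the gene means (log2) of the 34 members (filled points, red H and blue L, with bars from the lower to the upper quartile of the genes) and of 34 further interferon-induced genes (open diamonds) in each pig. H2, H3 and L3 lie highest in both.

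Levels of other cells' markers were set beside this order. The summed macrophage markers were 36.4 FPKM in H2, 62.0 in H3 and 54.8 in L3, within the range of 26.7 to 69.4 over all pigs, and the highest value was that of L1, whose members were at -0.16. CD68 was listed at 0 in all pigs. Lymphocyte markers summed to 3.91 to 7.13 FPKM, with 5.74 in H2, 6.24 in H3 and 5.88 in L3. In H2 NKG7 alone made up 3.12 FPKM, CD3D, CD3G and CD8A were at 0, and the median deviation of the lymphocyte markers tested was -0.26, the second lowest of the 12 pigs. In all pigs the B cell marker MS4A1 was at 0. Endothelial markers were highest in H2, at 133.5 FPKM, and lowest in L3, at 42.3, and CLDN5 was at 0. Of the plasmacytoid dendritic cell markers, IL3RA and CLEC4C were not found once in the annotation, while TCF4 was highest in H2, at 11.0 FPKM, and IRF8 was highest in H6, at 2.57, with 1.52 in H2. Between the groups, 7 of 7 adipocyte, 4 of 4 erythroid, 7 of 7 endothelial, 5 of 5 lymphocyte, 2 of 2 plasmacytoid dendritic cell and 7 of 9 macrophage markers tested had a log2 fold change above 0, against 50.6% of all genes. Of these, 2 adipocyte, 2 erythroid and 2 endothelial markers were higher at an unadjusted p under 0.05, against 3.93% of all genes. Of 9 skeletal muscle genes tested, 7 were likewise above 0, but some of these were listed at 0 in single pigs. TTN was above 0 in H2 and H5 alone, and MYH7 was at 0 in H6 and L4. TNNI1 was at 0 in L3, and its mean was higher in L pigs (812.3 FPKM) than in H pigs (717.6 FPKM). DES, 1 of the 9, was lower at an unadjusted p under 0.05, against 3.37% of all genes. None of the markers passed the adjusted threshold. Adipocyte and erythroid markers had summed medians of 153.0 against 109.2 FPKM and 235.6 against 92.9 FPKM in H and L pigs. The part of these cells in the levels of the members was not tested.

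The sensors bind viral RNA in the cytoplasm. RIGI, which detects RNA with a 5′ triphosphate, lies at chr10:33891720-33976151 on the plus strand, has up to 20 exons, and had the widest range of the 3 sensors. H pigs had a lowest level of 0.85 FPKM, with a median of 1.36 and a highest value of 3.77 in H2. In L pigs it ran from 0.803 over a median of 1.24 to 1.46 in L3. H2 stood above all other pigs, and the remaining pigs overlapped. The difference on the log2 scale, H minus L, was 0.27 ± 0.24 (SE, n = 6 and 6; limma adjusted p = 0.81, exact permutation p = 0.331). It was 0.062 without H2, 0.070 with weighted FPKM and -0.10 with annotated intron chains alone. In H2, 1.96 FPKM of the deposited value came from an unspliced transcript of 2082 bases, and with weighted FPKM H2 was still highest, at 1.17. RIGI shares 424 exonic bases with ACO1 on the other strand. IFIH1, the sensor MDA5 of long double-stranded RNA, was highest in H3 at 1.44 FPKM, with a mean of 0.809, but in L2 with weighted FPKM. DHX58, their relative LGP2, was above 0 in 5 pigs, 4 of them H, and reached 0.776 FPKM in H3.

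Of the 4 transcription factors, 3 had a log2 fold change above 0 and none passed the test. IRF7, the factor that drives interferon alpha genes, lies at chr2:372235-375572 on the minus strand. Its level was lowest at 0.577, median 0.913 and highest at 1.38 FPKM in H pigs, and 0.76, 0.881 and 2.72 FPKM in L pigs. L1 and L2 lay above all H pigs, and the other L pigs within the H range. On the log2 scale H minus L was -0.26 ± 0.25 (SE, n = 6 and 6; limma adjusted p = 0.824, exact permutation p = 0.361). It was -0.069 without L1, -0.11 with weighted FPKM, -0.50 without H2, H3 and L3, and 0.38 with annotated intron chains alone. In L1, 1.77 FPKM of the deposited value came from a transcript of 384 bases at the 3′ end, and with weighted FPKM L2 was highest at 1.51. IRF9 had the highest mean of the 4, 4.84 FPKM, and STAT2 the narrowest range between pigs of all 34 members listed above 0, 0.63 on the log2 scale. IRF1, which also answers interferon gamma, was highest in L3 at 3.62 FPKM, against 1.28 to 1.81 in the other L pigs.

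All 9 tested effectors that act on RNA or nucleotides had a log2 fold change above 0, against 50.6% of all genes, with a median of 0.35. H2 or H3 was the highest pig for each of them, though not for CMPK2 without transcripts under 200 bases, and the members vary together. IFIT5 alone was higher at an unadjusted p under 0.05, against 3.93% of all genes. IFIT1, IFIT2, IFIT3 and IFIT5 lie side by side on chromosome 14 between 101193421 and 101266105. IFIT5 was measured through 1 spliced transcript with the annotated intron in each of the 12 pigs. Its level in H pigs was lowest at 1.03 FPKM in H1, with a median of 1.40 and a highest value of 2.43 in H2. In L pigs the values were 0.911, 1.05 and 1.34 FPKM, the last in L3. Of the H pigs, 3 lay above all L pigs. The mean was 1.58 ± 0.518 (SD, n = 6) in H pigs and 1.08 ± 0.145 (SD, n = 6) in L pigs, with a log2 fold change of 0.37 ± 0.16 (SE; limma adjusted p = 0.679, exact permutation p = 0.0325), and 0.21 without H2, H3 and L3. H2 was the highest pig for all 4 IFIT genes, but the rest of the order differed. IFIT5 and IFIT3 correlated within groups at r = 0.89 in weighted FPKM over 12 pigs, and IFIT5 and IFIT2 at r = 0.61, while RSAD2 on chromosome 3 reached r = 0.94 with IFIT5.

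CMPK2, a nucleotide kinase of mitochondria, and RSAD2, the enzyme viperin that makes a chain-terminating nucleotide, are neighbours on chromosome 3, 5585 bases apart and read in opposite directions. CMPK2 lies at chr3:128903395-128917873 on the plus strand. In H pigs its level was lowest at 1.09, median 4.28 and highest at 27.9 FPKM, and in L pigs 0.575, 1.75 and 6.82 FPKM. H3 and H6 stood above all other pigs, at 27.9 and 13.9 FPKM. In H3, 26.1 FPKM of the deposited value came from a fragment of 126 bases at the 3′ end. Without transcripts under 200 bases H3 was at 1.11 and H6 at 2.01 FPKM, and H5 was highest, at 4.36 FPKM. With weighted FPKM H3 was highest, at 1.97, and H6 was at 1.18. The log2 fold change of 1.15 ± 0.68 (SE, n = 6 and 6; limma adjusted p = 0.734, exact permutation p = 0.158) was the largest of the 33 members. It was 0.69 without H3, 0.49 with weighted FPKM, 0.42 without transcripts under 200 bases and 0.14 with annotated intron chains alone. RSAD2 was highest in H2, at 3.43 FPKM, and then in H3, at 1.72, and no other pig passed 1.21 FPKM.

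OAS1, which makes the 2-5A signal that activates RNase L, lies at chr14:38851083-38867427 on the minus strand, 3385 bases from OAS2. Lowest, median and highest levels were 2.66, 6.91 and 45.5 FPKM in H pigs, and in L pigs 2.22, 4.14 and 10.1 FPKM. H2 stood at 11.2 times the median of the other pigs. In H2 fragments of 250 and 226 bases carried 13.5 and 17.2 FPKM, beside a transcript of 1348 bases with 8.66 FPKM. With weighted FPKM H2 was still highest, at 10.7 FPKM, 3.53 times the median of the others. Between the groups the log2 fold change was 0.85 ± 0.64 (SE, n = 6 and 6; limma adjusted p = 0.786, exact permutation p = 0.268), 0.36 without H2 and 0.43 with weighted FPKM. No assembled OAS1 transcript had an annotated intron chain, and all began inside the annotated gene. EIF2AK2, which stops translation when it binds double-stranded RNA, was highest in H2 at 3.56 FPKM and in H3 at 3.24 FPKM.

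Of the 4 GTPases, MX1 and MX2, which trap incoming virus particles, had a log2 fold change above 0, and GBP1 and GBP2 below 0. GBP1 lies at chr4:127425699-127442132 on the plus strand. Its level in H pigs was lowest at 1.98, median 3.66 and highest at 16.7 FPKM, and in L pigs 2.60, 4.25 and 11.0 FPKM. H3 and L3 were the highest pigs, and H2 was at 3.87 FPKM, within the range of the other pigs. The log2 fold change was -0.20 ± 0.46 (SE, n = 6 and 6; limma adjusted p = 0.936, exact permutation p = 0.71). It was 0.030 without L3 and -0.58 without H3, and with H1, H5, L1, L2 or L5 left out it lay between -0.34 and -0.026. GBP1 shares 8.94% of its exonic stretches of 76 bases with other genes, and GBP2 22.7%, so their levels are uncertain. MX1 was at 2.58 FPKM in H3, 2.55 in H2 and 2.00 in L3, against 0.762 to 1.34 in the other pigs. MX2 was highest in H2 at 3.24 FPKM.

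ISG15, the ubiquitin-like protein that is joined to other proteins, lies at chr6:63363201-63364211 on the plus strand and has 2 exons. Its levels were 1.03, 1.23, 1.71, 0.697, 1.26 and 1.65 FPKM in H1 to H6 and 2.11, 3.48, 5.75, 0.894, 2.83 and 1.67 FPKM in L1 to L6. L1, L2, L3 and L5 lay above all H pigs, and L4 and L6 within their range. The mean was 1.26 ± 0.381 (SD, n = 6) in H pigs and 2.79 ± 1.70 (SD, n = 6) in L pigs, with a log2 fold change of -0.77 ± 0.31 (SE; limma adjusted p = 0.652, exact permutation p = 0.0498), and -0.45 without H4 and L3. H2, highest for 14 members, was at 1.23 FPKM. The assembled length moved with the level, since the 4 L pigs above the H range had transcripts of 540 to 890 bases, while those of H pigs ran from 807 to 4752 bases and reached beyond the annotated gene. FPKM is divided by that length, and its part in the difference was not tested. Read depth over the transcript, as deposited, was 7.88 to 17.96 in H pigs and 16.3 to 45.7 in these 4 L pigs. This depth is also averaged over the assembled length and is not scaled between libraries, so it cannot separate length from level.

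The enzymes around ISG15 followed its order of pigs only in part. USP18 shared L3 as its highest pig, though not with weighted FPKM, and HERC5 did not share it. USP18, which removes ISG15 from proteins and restrains the interferon receptor, was highest in L3, H3, H2 and L2, at 1.66, 1.63, 1.48 and 1.36 FPKM. With weighted FPKM USP18 was at 1.04 in H2, 1.03 in H3 and 0.81 in L3. HERC5, the ligase that attaches ISG15, was highest in H2 at 1.51 FPKM and listed at 0 in L4. PARP9 and DTX3L, which act as a pair in ADP-ribosylation and ubiquitination, overlap at their 5′ ends on opposite strands and correlated at r = 0.81 within groups in weighted FPKM over 12 pigs. Both were highest in H2, at 1.98 and 4.73 FPKM. PARP14 was listed at 0 in 5 pigs and did not pass 1.94 FPKM.

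The group of membrane, mitochondrial and other proteins held the highest mean of the list, that of IFI6, a protein of mitochondria and the endoplasmic reticulum, at chr6:84852782-84858072 on the minus strand. Lowest, median and highest levels were 6.60, 12.6 and 37.3 FPKM in H pigs, and in L pigs 5.01, 7.78 and 19.4 FPKM. H3 and H2, at 24.99 FPKM, lay above all L pigs, and the other H pigs among them. The difference on the log2 scale, H minus L, was 0.53 ± 0.46 (SE, n = 6 and 6; limma adjusted p = 0.806, exact permutation p = 0.305), 0.25 without H3 and 0.16 without H2, H3 and L3. BST2, the tether that holds virus particles on the cell surface, lies at chr2:60305306-60308295 on the plus strand. Its level was 3.29, 6.55 and 13.3 FPKM in H pigs as lowest, median and highest, and 3.55, 6.04 and 8.87 FPKM in L pigs. H3 was highest, at 13.3 FPKM, and the groups overlapped. With weighted FPKM H2 was highest, at 9.35, and H3 was at 6.30. No assembled BST2 transcript had an annotated intron chain. The log2 fold change of BST2 was 0.047 ± 0.31 (SE, n = 6 and 6; limma adjusted p = 0.983, exact permutation p = 0.877), and below 0 without H2, H3 or L4, at -0.052, -0.15 and -0.096.

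IFI44 lies at chr6:134634679-134649857 on the minus strand. Its level in H pigs was lowest at 1.13, median 1.65 and highest at 4.12 FPKM in H2, and in L pigs 0.808, 1.26 and 1.59 FPKM. H2, H3 and H4 lay above all L pigs. On the log2 scale H minus L was 0.50 ± 0.23 (SE, n = 6 and 6; limma adjusted p = 0.681, exact permutation p = 0.0411), 0.31 without H2 and 0.25 without H2, H3 and L3. Within groups IFI44 followed IFIT5 at r = 0.96 in weighted FPKM over 12 pigs, the closest pair among 30 members, although the genes are on chromosomes 6 and 14. IFI44L, its neighbour 10372 bases away, was highest in H4 at 9.03 FPKM and had r = 0.45 with IFI44. IFI35 was listed at 0 in H4 and L5 and ran from 1.19 to 2.35 FPKM in the other pigs. XAF1, which opposes an inhibitor of cell death, was highest in H3 at 2.06 FPKM. All of its exonic bases lie inside C12H17orf100 on the same strand, so the levels of these genes cannot be separated.

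TRAFD1, a zinc finger protein that restrains innate signalling, lies at chr14:39549849-39579781 on the minus strand and has 12 exons. The study named it among its differentially expressed genes, so it was chosen on these samples and is not independent evidence. Lowest, median and highest levels were 3.72, 8.67 and 12.2 FPKM in H pigs, and in L pigs 3.93, 6.86 and 63.7 FPKM. L3 stood apart at 8.84 times the median of the other pigs, and the remaining L pigs lay within the range of H pigs. The value of L3 was carried by a transcript with all 12 annotated exons, at 51.2 FPKM as deposited and a read depth of 435, against at most 87.2 for any transcript of the other pigs. Between the groups the log2 fold change was -0.35 ± 0.56 (SE, n = 6 and 6; limma adjusted p = 0.901, exact permutation p = 0.706). It was 0.18 without L3, -0.18 without H4, -0.21 without H1 and -0.59 without L2, and -1.09 with annotated intron chains alone. Of the 7 other genes tested within 500000 bases on either side, none was raised as much in L3, and their ratios to the median of the other pigs ran from 0.506 to 1.93. Among the 12414 genes tested, 183 had a ratio in L3 at least as high as that of TRAFD1.

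The chemokine CXCL10, which attracts T cells and answers interferon gamma as well as type I interferon, lies at chr8:71693641-71695948 on the minus strand. Its levels were 0.492, 0.592, 3.85, 1.09, 0.272 and 0.569 FPKM in H1 to H6 and 1.25, 1.67, 4.57, 1.46, 1.07 and 1.502 FPKM in L1 to L6. H3 and L3 stood far above all other pigs, and without H3 the highest H pig was at 1.09 FPKM and the lowest L pig at 1.07. The log2 fold change was -0.71 ± 0.40 (SE, n = 6 and 6; limma adjusted p = 0.73, exact permutation p = 0.152), -1.05 without H3 and -0.47 without L3. CXCL10 and GBP1, on chromosomes 8 and 4, correlated at r = 0.92 within groups in weighted FPKM over 12 pigs, and CXCL10 and IRF1 at r = 0.80, while CXCL10 and RSAD2 had r = 0.33. H2 was the highest pig for RSAD2, IFIT5, IFI44, MX2 and RIGI, while H3 and L3 were the highest pair for CXCL10 and GBP1. These genes and pairs were chosen after their values were seen.

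**Figure D5:**
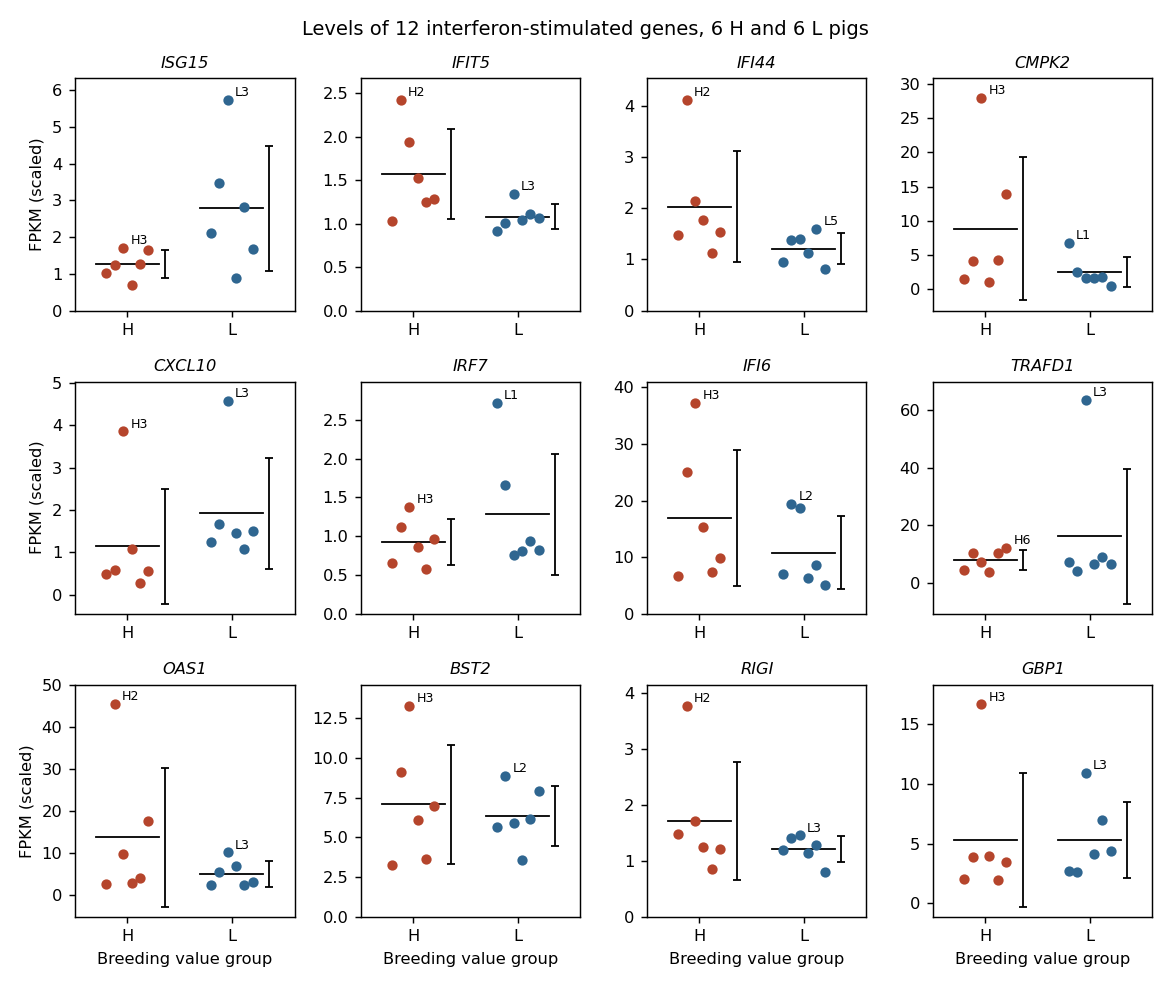
Scaled FPKM of the 12 members named in full, in 6 H pigs (red) and 6 L pigs (blue), with the group mean (line) and SD (bar at its right); the highest pig of each group is labelled. Single pigs, mostly H2, H3 and L3, set the upper end of most panels.

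Upstream of the members, the interferon genes looked for were scarcely listed. Of 9 interferon genes looked for, IFNL1 and IFNL3 were not found once in the annotation. IFNB1, IFNG, IFNE, IFNK, IFN-ALPHA-8 and IFN-OMEGA-5 were listed at 0 in all pigs, and IFN-DELTA-1 was above 0 in 4 pigs with at most 0.423 FPKM. None of those found reached the minimum for the test. H2, H3 and L3 had all 7 of those found at 0. Other interferon genes were not looked at, and a 0 can be a failed assembly.

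Of the 10 receptors and kinases 9 were tested. JAK1 alone had an unadjusted p under 0.05 and was lower in H pigs, as 3.37% of all genes were. JAK1, the kinase shared by all interferon receptors, had the highest mean of the list, 34.2 FPKM. Its levels ran from 23.9 to 31.3 FPKM in H pigs and from 36.5 to 45.4 FPKM in L pigs. The groups did not overlap, as for 0.556% of all genes tested. The difference on the log2 scale, H minus L, was -0.51 ± 0.11 (SE, n = 6 and 6; limma adjusted p = 0.41, exact permutation p = 0.0022, the smallest that 924 arrangements can give). It did not pass the adjusted threshold, and with annotated intron chains alone it was -1.47 (limma adjusted p = 0.838). None of 11 tested adaptors and upstream factors, of which MAVS was highest at 19.5 FPKM, had an unadjusted p under 0.05. None of 7 negative regulators, led by PIAS1 at 7.28 FPKM, had one either. Of all genes tested, 3.93% were higher and 3.37% lower in H pigs at that p.

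Of the 34 further interferon-induced genes tested, 24 had a log2 fold change above 0, against 50.6% of all genes, and none passed the adjusted threshold. PARP12 and ADAR, 2 of the 34 against 3.93% of all genes, had an unadjusted p under 0.05 and were higher in H pigs. PARP12, a relative of PARP14, ran from 0.85 to 1.81 FPKM in H pigs and from 0.698 to 0.988 FPKM in L pigs. Its log2 fold change was 0.52 ± 0.15 (SE, n = 6 and 6; limma adjusted p = 0.566, exact permutation p = 0.0065), 0.23 with weighted FPKM and -0.17 with annotated intron chains alone. ADAR, the enzyme that edits double-stranded RNA, ran from 1.65 to 6.39 FPKM in H pigs, the last in H2, and from 1.44 to 2.59 FPKM in L pigs. Its log2 fold change was 0.55 ± 0.25 (SE, n = 6 and 6; limma adjusted p = 0.681, exact permutation p = 0.0563), 0.36 without H2 and 0.19 with weighted FPKM. LAP3, an aminopeptidase, was the highest of these genes, at 18.7 FPKM.

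The levels of the 33 members tested were low, with a median of 1.62 FPKM against 3.94 over all genes tested, and 31 of them had a mean under 10 FPKM. Their SD within groups had a median of 0.50 on the log2 scale, against 0.39 over all genes. In H pigs it was 0.54 and in L pigs 0.42, and 23 of 33 members varied more among H pigs, against 47.8% of all genes.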

How the data were processed

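The authors sequenced 1 paired-end library of LD muscle per pig. Reads were trimmed (Trim Galore), aligned by TopHat2 2.1.0 against Sscrofa11.1 and assembled per library by Cufflinks 2.2.1. The deposited FPKM, with coverage per transcript, are the only other measured values, and a transcript not assembled counts as 0. FPKM depend on the assembled length. Transcripts were assigned with Python 3.11.15 to the RefSeq gene on the same strand with most shared exonic bases (ties to the gene with fewer exonic bases). Transcripts without a strand could go to a gene on either strand that shared at least 50% of their bases. FPKM were summed per gene and scaled by median ratios over 10466 genes. Genes with a group mean of at least 0.5 were tested with limma 3.58.1 in R 4.3.3 on log2(FPKM + 0.5) with a variance trend, two-sided, and Benjamini-Hochberg adjustment (threshold 0.1). The fit was tested on simulated data. The exact permutation test, two-sided over 924 arrangements, was run on the 34 members above 0 in a library and on the other lists' genes; these p-values are unadjusted. Members, lists and role groups were chosen with earlier results of these data known. Named in full are members with an unadjusted p under 0.05, the 3 with the smallest p in each direction, the 5 highest, the widest range in each role group, and TRAFD1; other genes were named after their values were seen. Alternatives were other pseudocounts, filters, scalings, transcript choices, limma settings, a replicate block and pigs left out; weighted FPKM, the fit without H2, H3 and L3 and the assembled 5′ ends were added after the data were seen.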

Additional observations from a re-analysis of the deposited data

Results flagged for a closer look

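Among 68 groups of 6 pigs (33 members and the median deviation, each in H and in L pigs), 13 held a pig set apart. Its gap to the nearest other pig passed Dixon's critical share of the range on the log2 scale. About 1 in 20 groups of independent, normally distributed values would pass it. The members vary together, and the share over all genes is not given here, so no excess over chance can be read from the 13. L3 was apart among L pigs for TRAFD1 (63.7 FPKM), CXCL10 (4.57), IRF1 (3.62), MX1 (2.00) and IFIH1 (1.27), and for the median deviation of the members (0.29). H2 was apart among H pigs for MX2 (3.24 FPKM) and IFIT2 (2.91), and H3 for GBP1 (16.7). L1 was apart for PARP14 (1.94 FPKM). IFI35 was listed at 0 in H4 and in L5, and HERC5 at 0 in L4, which may be failed assemblies. With weighted FPKM 7 of the 12 single genes were still apart, and MX2, IFIT2, IFIH1, HERC5 and PARP14 were not.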

How the results depend on the processing

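No member was called under any of 28 alternatives, where the smallest adjusted p was 0.492. The median log2 fold change of the members stayed above 0, between 0.043 and 0.28, and between 0.079 and 0.25 with single pigs left out. Genes called over all genes, 1 as reported, were 0 with a minimum of 1 FPKM, with genes above 0 in all 12 libraries alone and with the replicate block, 2 without a trend and with array weights, 5 without H2, H3 and L3, and 1 to 3 with single pigs left out. Members past an unadjusted p of 0.05, 2 as reported, were 1 with quantile normalization and without H2, H3 and L3, 0 with annotated intron chains alone and without H4 and L3, and 0 to 3 with single pigs left out. The fit with annotated intron chains alone tested only 20 members, and IFI44, OAS1 and BST2 were not among them. The replicate block gave 4, but pigs share only a number: same-numbered pigs correlated at -0.076 to 0.058 in their deviations, and of the 6 H pigs only H3 correlated best with its own number. Signs turned with annotated chains alone for RIGI (-0.10), IRF7 (0.38), GBP1 (0.15) and PARP12 (-0.17), with weighted FPKM for GBP1 (0.060), without H4 and L3 for GBP1 (0.032) and TRAFD1 (0.36), and without H2, H3 and L3 for TRAFD1 (0.072) and BST2 (-0.34). With single pigs left out GBP1 ran from -0.58 to 0.030, TRAFD1 from -0.59 to 0.18 and BST2 from -0.15 to 0.22. Of the 21 members not named in full, 11 changed sign at least once. The causes were not tested beyond the fewer transcripts or pigs of each alternative. Low levels, the assembly of each library by itself and fragments under 200 bases limit the precision.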
